A study of Mus musculus with 26 samples.

Results

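The genes described here encode 10 amino acid transporters of the plasma membrane: Slc3a2, Slc7a5, Slc7a6, Slc7a10, Slc7a11, Slc7a1, Slc7a2, Slc38a1, Slc38a2 and Slc1a5. They were chosen by name for their function, with earlier results of these data known. All 10 were found among the 50686 genes listed in the count table and among the 17286 that passed the filter on low counts. The values are RNA-seq counts from brown adipose tissue (BAT), labelled supraclavicular, of male C57BL/6J mice that had spent 2 weeks at thermoneutrality, given as 30 °C in the labels. The mice were adult, were housed individually, and were either kept at thermoneutrality or moved to 5 °C for 6 h.

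Libraries of 4 groups were compared, each library from a separate mouse. There were 7 control libraries at 30 °C, 7 libraries labelled Afadin KO at 30 °C, 5 control libraries at 5 °C and 7 libraries labelled Afadin KO at 5 °C, 26 in all. Afadin KO mice carried floxed alleles of the Afadin gene (Afdn, also called Mllt4) and Adiponectin-Cre, which is driven by a promoter active in adipocytes of white as well as brown fat, and the controls were littermates labelled WT, whose alleles are not given in the sources used here. Other cells of the tissue keep the gene, and in whole tissue fewer cells of a type and less RNA per cell cannot be told apart.

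Library totals ran from 12705969 to 25732258 counts. Afdn did not separate the genotypes at 30 °C, with 151 to 214 CPM (counts scaled to a common library size) in control and 154 to 231 CPM in the libraries labelled Afadin KO (log2 fold change −0.01, SE 0.08, adjusted p = 0.992 by edgeR's quasi-likelihood test). At 5 °C it was 67.9 to 79.2 CPM in control and lower in all 7 of the other group, at 53.3 to 65.3 CPM (−0.33, SE 0.09, adjusted p = 0.116), so the genotype is called by its label throughout. Ucp1, the uncoupling protein that defines brown fat, was higher at 5 °C by 4.02 and 4.34 on the log2 scale in the respective genotypes. Control library 7 at 30 °C stood apart, with 14.3% of its counts from mitochondrial genes where the other 6 of its group had 33.9% to 40.5%. Several levels and changes that library 7 moves are given with and without it. The mitochondrial share also differed between the genotypes at 30 °C, with a median of 37.2% in control and 28.3% (26.2% to 38.5%) in the libraries labelled Afadin KO. At 5 °C it was 26.1% to 33.8% in control and 19.2% to 39.3% in the libraries labelled Afadin KO. The summed level of 7 skeletal muscle markers ran from 0.815 to 7411 CPM over the libraries.

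Cells take up amino acids through carriers that differ in what they move and what drives them. Slc3a2 (4F2hc, CD98) is a glycoprotein that carries no amino acid itself and brings light chains of the Slc7 family, which form the transport path, to the cell surface. Slc1a5 and the Slc38 carriers use the sodium gradient to bring in glutamine and other neutral amino acids, which exchangers can then trade for leucine or cystine, and intracellular amino acids feed protein synthesis and activate the kinase complex mTORC1.

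Of the transporters, 6 had a RefSeq start site in the promoter table used (8 promoters, build GRCm38.p6). Those of the heavy chain, the cystine exchanger and the more abundant Slc38 carrier are shown as examples from the 5 genes with an entry that rose with cold. Each is the 250 bases before the start, written 5′ to 3′ on the gene's strand, with motif matches in capitals.

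Slc7a11 (chr3:50443614-50443863, minus strand): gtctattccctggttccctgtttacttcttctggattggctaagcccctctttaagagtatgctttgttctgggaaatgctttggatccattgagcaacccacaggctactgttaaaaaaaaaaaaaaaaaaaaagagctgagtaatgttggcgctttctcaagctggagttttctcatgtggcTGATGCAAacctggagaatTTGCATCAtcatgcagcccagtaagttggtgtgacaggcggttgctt

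Slc38a2 (chr15:96699729-96699978, minus strand): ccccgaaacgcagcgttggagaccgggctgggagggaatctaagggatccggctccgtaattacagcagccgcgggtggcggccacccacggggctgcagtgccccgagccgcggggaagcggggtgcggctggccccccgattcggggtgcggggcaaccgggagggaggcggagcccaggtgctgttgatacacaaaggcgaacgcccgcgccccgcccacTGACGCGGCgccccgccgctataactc

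Slc3a2 (chr19:8713898-8714147, minus strand): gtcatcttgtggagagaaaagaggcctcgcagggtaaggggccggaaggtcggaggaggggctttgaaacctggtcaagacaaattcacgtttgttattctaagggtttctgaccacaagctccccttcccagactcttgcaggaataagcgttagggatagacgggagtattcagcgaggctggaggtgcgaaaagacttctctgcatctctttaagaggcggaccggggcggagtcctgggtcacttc

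The 4 motifs searched on both strands were TGATGNAA, the core of the C/EBP-ATF response element bound by Atf4 dimers, which 3.45% of 32841 promoters of this length held, TGACNNNGC, the core of the antioxidant response element (10.2%), TGACGTCA, the full cAMP response element (1.55%), and CACGTG, the E-box bound by Myc (6.02%). Slc7a11 held the first motif at 66 to 59 and again, on the other strand, at 47 to 40 bases before its start. Slc38a2 held TGACNNNGC at 27 to 19 bases, Slc7a1 at 11 to 3 and Slc7a6 at 68 to 60 bases before a start, and Slc3a2 and Slc7a10 held none of the 4. The Slc3a2 start used lies inside the longer gene model of the counts. A match is a description of the letters and not of binding.

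With cold, 6 of the 10 transporter genes rose in control BAT, 2 fell and 2 did not pass the threshold. The heavy chain Slc3a2 rose most, Slc7a1, Slc7a5 and Slc7a11 rose about as far from low levels, Slc7a6 and Slc38a2 rose less, and the glutamine carrier Slc1a5, the most abundant at 30 °C, fell. Over all genes, 31.6% rose and 33.4% fell in this comparison, and the groups did not overlap for 8 of the 10 transporters against 46.4% of all genes. The median log2 fold change of the 10 was 1.88 against −0.01 over all genes, and their median absolute change was 2.22 against 0.55. The libraries labelled Afadin KO again gave 6 higher and 2 lower, where 33.7% of all genes rose and 34.9% fell. Here the groups did not overlap for 7 of the 10, against 40.4% of all genes, and the median change was 1.83 against −0.03. Since the 10 were chosen with earlier results of these data known, these shares and medians are a description and not a test. A gene was called at an adjusted p below 0.05 (Benjamini-Hochberg over all 17286 genes), and the adjusted p-values below are from edgeR's quasi-likelihood test.

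**Figure D1:**
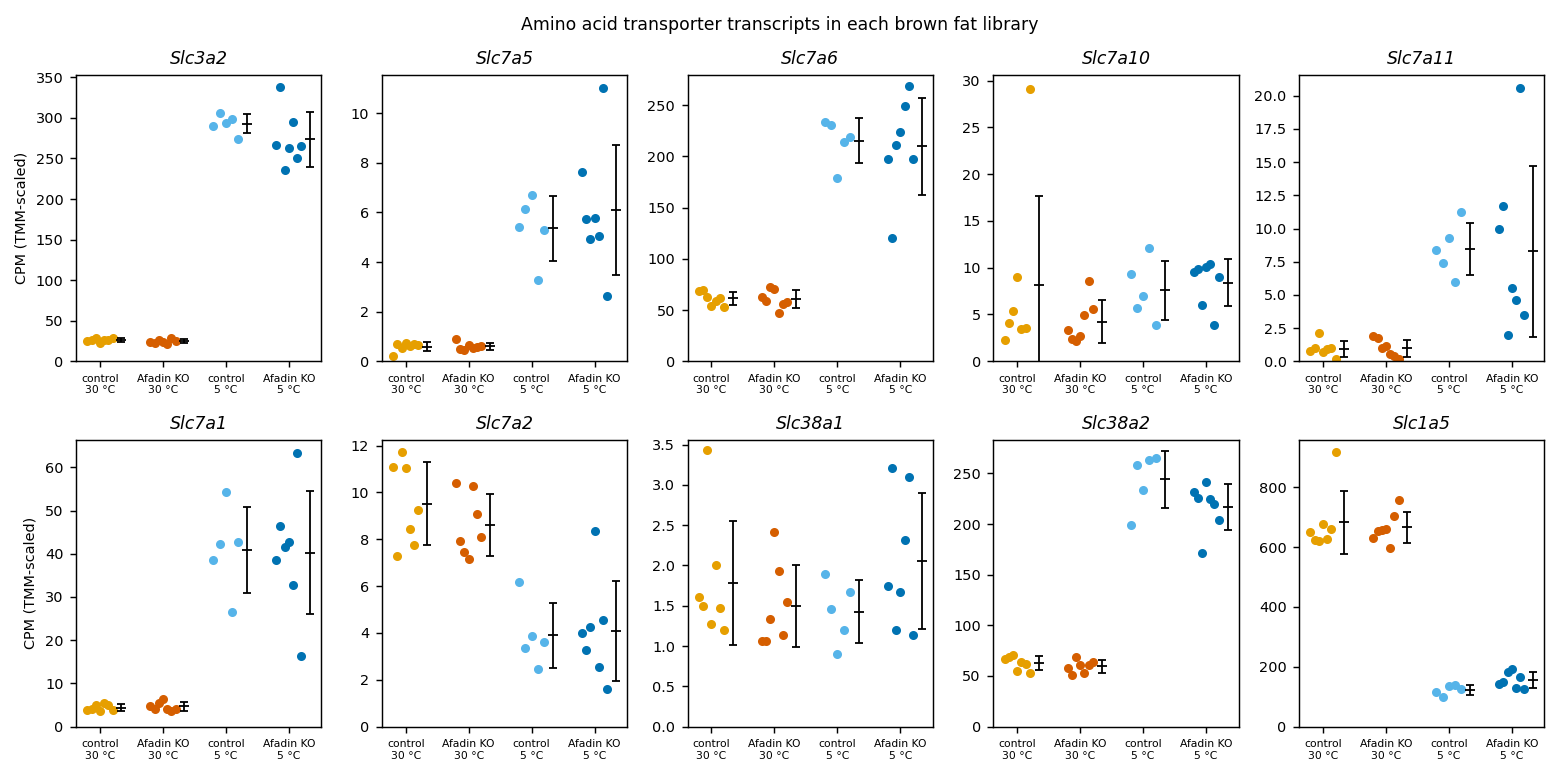
Each panel plots the CPM (linear axis from 0) of 1 transporter gene in each library, by group (7 control and 7 labelled Afadin KO at 30 °C, 5 control and 7 labelled Afadin KO at 5 °C), with the mean and SD in black (cut off at 0 where it would pass it). Slc3a2 stood at 22.4 to 29.0 CPM in control at 30 °C and at 274 to 306 CPM at 5 °C, while for Slc7a10 and Slc38a1 the groups overlap.

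Slc3a2, the heavy chain, had 22.4, 25.9 and 29.0 CPM (lowest, median and highest) in the 7 control libraries at 30 °C. After cold the 5 control libraries had 291, 306, 294, 299 and 274 CPM. All 5 were far above the warm libraries, and the change was 3.48 (SE 0.08, adjusted p = 2.81e-21), an 11.2-fold rise with the smallest p-value of all 17286 genes. With the Afadin KO label, Slc3a2 went from 20.9, 24.2 and 28.4 CPM to 235, 265 and 338 CPM. The groups were as far apart as in control, the change was 3.48 (SE 0.08, adjusted p = 1.09e-21), and it again ranked 1 by p-value.

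Slc7a5 (LAT1), the light chain that exchanges leucine and other large neutral amino acids, was scarce at 30 °C, with 0.193, 0.642 and 0.725 CPM in control, which is 3 to 14 reads a library. After cold the control libraries had 5.40, 6.13, 6.69, 3.27 and 5.30 CPM. Every cold library exceeded every warm library, and the change was 3.17 (SE 0.28, adjusted p = 1.36e-10). Libraries labelled Afadin KO went from 0.466, 0.5682 and 0.907 to 2.63, 5.74 and 11.0 CPM, again without overlap (3.33, SE 0.26, adjusted p = 1.32e-11).

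Slc7a6 (y+LAT2), which exchanges arginine against neutral amino acids and sodium, was the most abundant of the light chains. In control it had 53.0, 62.0 and 69.9 CPM at 30 °C and 234, 230.3, 179, 214 and 219 CPM after cold. The groups were apart, with a change of 1.81 (SE 0.13, adjusted p = 4.13e-12). The libraries labelled Afadin KO went from 47.4, 58.8 and 72.1 to 120.1, 211 and 269 CPM (1.79, SE 0.12, adjusted p = 1.33e-12), and the lowest cold library, at 120.1 CPM, still lay above every warm library.

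Slc7a11 (xCT), which imports cystine in exchange for glutamate and so supplies cysteine for glutathione, had 0.138, 0.927 and 2.10 CPM in control at 30 °C, or 3 to 38 reads, with the lowest in control library 7 and the next at 0.665 CPM. After cold the 5 control libraries had 8.36, 7.39, 9.31, 5.98 and 11.2 CPM, all above the warm libraries (3.16, SE 0.51, adjusted p = 4.50e-06). Without control library 7 the change was 2.92. Slc7a11 went from 0.200, 0.989 and 1.87 to 1.95, 5.54 and 20.6 CPM in the libraries labelled Afadin KO (3.09, SE 0.48, adjusted p = 2.33e-06). The groups did not overlap, but the cold libraries spread from just above the warm ones to far beyond the control group. The library with 20.6 CPM, library 27, also had the highest levels of Slc7a5 and Slc7a1 (11.0 and 63.4 CPM) and the highest sum of 6 neutrophil markers, 57.2 CPM. In this group the next highest neutrophil sums were 23.1 CPM in library 26 and 17.9 CPM in library 22. Slc7a11, Slc7a5 and Slc7a1 stood at 4.63, 5.06 and 32.8 CPM in library 26 and at 9.99, 7.62 and 38.4 CPM in library 22. Library 23, with the group's next highest Slc7a11 and Slc7a1 (11.7 and 46.4 CPM), had a neutrophil sum of 8.89 CPM.

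Those neutrophil markers summed to 3.29 to 10.4 CPM in control and 2.502 to 5.27 CPM in the libraries labelled Afadin KO at 30 °C, and to 6.27 to 13.1 CPM and 5.68 to 57.2 CPM at 5 °C. The 10.4 CPM came from control library 7, and without it the warm control libraries reached 4.65 CPM and lay below the cold ones. Of the 5 tested, 3 rose with cold in control and 4 in the libraries labelled Afadin KO, and 1 of the 6 had no count in either group at 30 °C. Of all genes, 31.6% rose and 33.4% fell with cold in control, and 33.7% and 34.9% in the libraries labelled Afadin KO. Of 7 macrophage markers, 3 rose and 2 fell in control, 5 rose and 2 fell in the other genotype, and their sum ranged from 153 to 241 CPM in control and 153 to 197 CPM in the libraries labelled Afadin KO at 30 °C, and from 209 to 257 CPM and 232 to 295 CPM at 5 °C. Of 5 red blood cell markers 0 rose in control and 5 in the libraries labelled Afadin KO, where their sum ranged from 289 to 609 CPM at 30 °C and from 517 to 1497 CPM at 5 °C, with the highest in library 27. In control it was 233 to 1120 CPM at 30 °C, where the highest was library 7 and the other 6 reached 486 CPM, and 417 to 684 CPM at 5 °C. The part of these cells in the rises of Slc7a11, Slc7a5 and Slc7a1 was not tested.

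Slc7a10 (Asc-1), an exchanger of small neutral amino acids that is used as a marker of white adipocytes, had 2.32, 4.06 and 29.1 CPM in control at 30 °C, and the next highest library had 9.01 CPM. After cold the control libraries had 9.31, 5.64, 6.99, 12.1 and 3.92 CPM. The groups overlapped and the change was −0.11 (SE 0.48, adjusted p = 0.843). Without control library 7, which held the 29.1 CPM, it was 0.69 (adjusted p = 0.0905). Libraries labelled Afadin KO went from 2.15, 3.31 and 8.57 to 3.88, 9.57 and 10.4 CPM, and the change of 0.99 (SE 0.45, adjusted p = 0.0524) lay at the edge of the threshold, with overlapping groups. Control library 7 also had the highest level of 6 preadipocyte and fibroblast markers of its group (2847 CPM, the others 1107 to 1644 CPM) and of 7 skeletal muscle markers (5408 CPM). Whether other tissue in the sample has a part in its Slc7a10 level was not tested. Slc7a10 shares 377 bases of exon with Lrp3 on the opposite strand, and since the strand setting of the counting is not given in the sources used here, reads from these bases cannot be told apart.

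Slc7a1 (CAT1), a carrier of arginine, lysine and ornithine that works without a heavy chain, had 3.51, 4.06 and 5.56 CPM in control at 30 °C. After cold the control libraries had 38.6, 42.2, 54.4, 26.4 and 42.7 CPM. They lay wholly above the warm libraries, with a change of 3.23 (SE 0.22, adjusted p = 1.47e-12), a 9.40-fold rise. Slc7a1 went from 3.62, 4.09 and 6.49 to 16.3, 41.5 and 63.4 CPM in the libraries labelled Afadin KO (3.11, SE 0.21, adjusted p = 8.16e-13), with a wide spread among the cold libraries.

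Slc7a2 (CAT2), the related cationic amino acid carrier, moved the other way. In control it had 7.30, 9.27 and 11.7 CPM at 30 °C and 6.17, 3.34, 3.86, 2.44 and 3.63 CPM after cold. The groups did not overlap, and Slc7a2 fell by 1.29 on the log2 scale (SE 0.26, adjusted p = 9.79e-05). In the libraries labelled Afadin KO it had 7.14, 8.09 and 10.4 CPM at 30 °C and 1.61, 3.98 and 8.34 CPM after cold, a fall by 1.08 on that scale (SE 0.23, adjusted p = 0.000202), with 1 cold library inside the warm range. An antisense gene, Gm26584, covers 635 bases of its exons, and the same limit on strand applies.

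Slc38a2 (SNAT2), the sodium-coupled carrier that responds to amino acid shortage, had 53.0, 64.2 and 70.6 CPM in control at 30 °C. The cold control libraries had 199, 259, 234, 264 and 265 CPM. All lay above the warm libraries, with a change of 1.96 (SE 0.09, adjusted p = 6.66e-16). In the libraries labelled Afadin KO it went from 50.8, 61.0 and 68.3 to 171, 224 and 241 CPM (1.87, SE 0.09, adjusted p = 3.81e-16), again without overlap.

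Slc38a1 (SNAT1), its close relative, was scarce in every group. Control libraries had 1.19, 1.498 and 3.43 CPM at 30 °C and 1.90, 1.46, 0.901, 1.20 and 1.67 CPM after cold, which overlapped (−0.33, SE 0.30, adjusted p = 0.339). Values in the libraries labelled Afadin KO were 1.07, 1.34 and 2.42 CPM at 30 °C and 1.14, 1.75 and 3.20 CPM after cold, a difference of 0.46 (SE 0.27, adjusted p = 0.129). Neither difference exceeded the spread between libraries.

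Slc1a5 (ASCT2), the sodium-dependent exchanger of glutamine and other neutral amino acids, was the highest of the 10 at 30 °C, with 622, 652 and 918 CPM in control. After cold the control libraries had 116, 98.7, 136, 138 and 126 CPM. None reached the warm range, and Slc1a5 fell by 2.48 on the log2 scale (SE 0.12, adjusted p = 1.53e-15), to 0.180 of its warm level. The 918 CPM came again from control library 7, where the next highest was 677 CPM, and without it the change was −2.41 (adjusted p = 3.65e-16). In the libraries labelled Afadin KO it went from 597, 657 and 758 to 125, 150.4 and 194 CPM, a fall by 2.10 (SE 0.10, adjusted p = 1.73e-15).

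**Figure D2:**
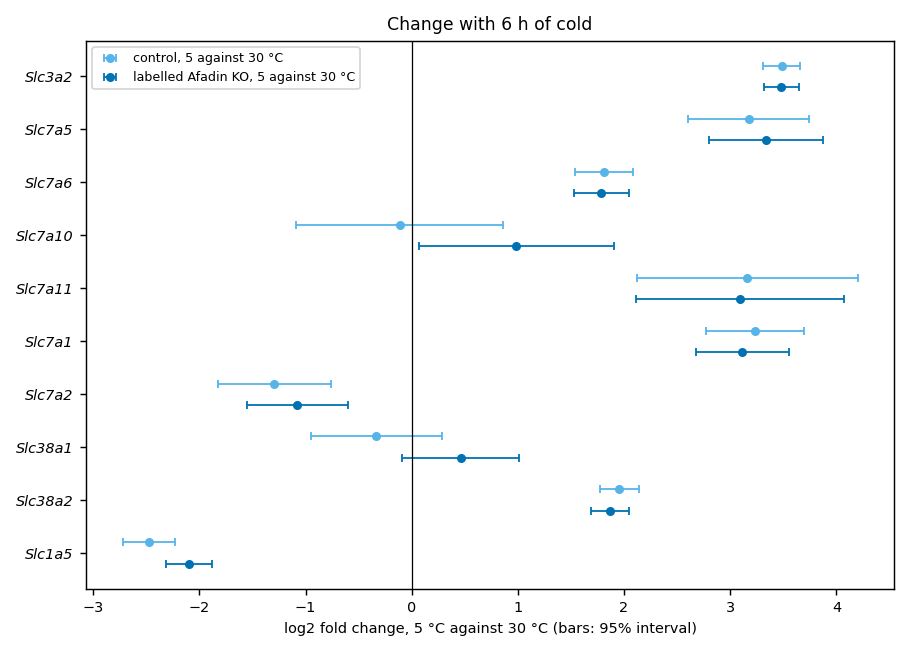
The log2 fold change of each transporter gene from 30 °C to 5 °C (horizontal axis) with its 95% interval, in control (light blue) and in the libraries labelled Afadin KO (dark blue). Slc3a2 sits at 3.48 in both, Slc1a5 at −2.48 and −2.10, and the intervals of Slc7a10 and Slc38a1 in control include 0.

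Levels can be compared between genes as RPKM (CPM per kilobase of exon). At 30 °C the control order was Slc1a5 (164 ± 25.3 RPKM, SD, n = 7), Slc7a6 (13.4 ± 1.45), Slc3a2 (7.42 ± 0.636), Slc38a2 (7.12 ± 0.757), Slc7a10 (3.84 ± 4.51), Slc7a2 (1.04 ± 0.195), Slc7a1 (0.378 ± 0.0653), Slc7a5 (0.158 ± 0.0490), Slc38a1 (0.104 ± 0.0449) and Slc7a11 (0.0680 ± 0.0426). The ranges of neighbours overlapped from Slc3a2 to Slc7a2 and from Slc7a5 to Slc7a11, and the other steps did not overlap. Without control library 7 Slc7a10 was 2.18 ± 1.12 RPKM (n = 6), and its range, 1.10 to 4.27, then lay below that of Slc38a2, 6.22 to 7.98. After cold the order in control began with Slc3a2 (83.0 ± 3.41 RPKM, n = 5), Slc7a6 (47.1 ± 4.75), Slc1a5 (29.4 ± 3.86) and Slc38a2 (27.6 ± 3.18), of which only the last pair overlapped. Then came Slc7a10 (3.59 ± 1.51) and Slc7a1 (3.54 ± 0.869), which overlapped, Slc7a5 (1.45 ± 0.350), Slc7a11 (0.607 ± 0.143) and Slc7a2 (0.426 ± 0.151), the last 2 overlapping, and Slc38a1 (0.0827 ± 0.0227). The exon length of each gene covers all its annotated transcripts, such as 17236 bases for Slc38a1, 13922 for Slc7a11 and 11530 for Slc7a1. An RPKM would be higher over a shorter transcript, so the order and the sums depend on these lengths.

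The summed level of the 10 genes was close to the same in the 4 groups, at 197 ± 28.5 RPKM in control (n = 7) and 190.3 ± 13.9 RPKM in the libraries labelled Afadin KO (n = 7) at 30 °C, and at 197 ± 4.73 (n = 5) and 196 ± 11.8 RPKM (n = 7) at 5 °C. Without control library 7 the first of these was 187 ± 4.42 RPKM (n = 6). Its range was then 181 to 192.53 RPKM, which barely met that of control at 5 °C, 192.52 to 204 RPKM. The makeup of the sum differed between temperatures. Slc1a5 made up 83.0% of the sum in control at 30 °C and 14.9% after cold, and Slc3a2 3.76% and 42.2%. In the libraries labelled Afadin KO these shares were 83.9% and 19.1% for Slc1a5 and 3.64% and 39.6% for Slc3a2. The heavy chain also rose against the sum of its light chains, of which Slc7a6 was the largest part. The ratio of Slc3a2 to the sum of the 6 light chains (Slc7a5, Slc7a6, Slc7a7, Slc7a8, Slc7a10 and Slc7a11), all in RPKM, was 0.306 to 0.463 in control and 0.375 to 0.447 in the libraries labelled Afadin KO at 30 °C, and 1.29 to 1.58 and 1.06 to 2.48 at 5 °C, with no overlap between temperatures. The 0.306 came from control library 7, and the other 6 had 0.362 to 0.463. Slc7a6 made up 72.1% of the light chain sum in control at 30 °C and 79.2% at 5 °C. In the libraries labelled Afadin KO it was 80.2% and 78.0%. With cold in control Slc7a8, Slc7a5 and Slc7a11 rose by 3.59, 3.17 and 3.16 on the log2 scale, about as far as Slc3a2 (3.48). Slc7a6 rose by 1.81, Slc7a7 by 0.41, and Slc7a10 changed by −0.11.

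**Figure D3:**
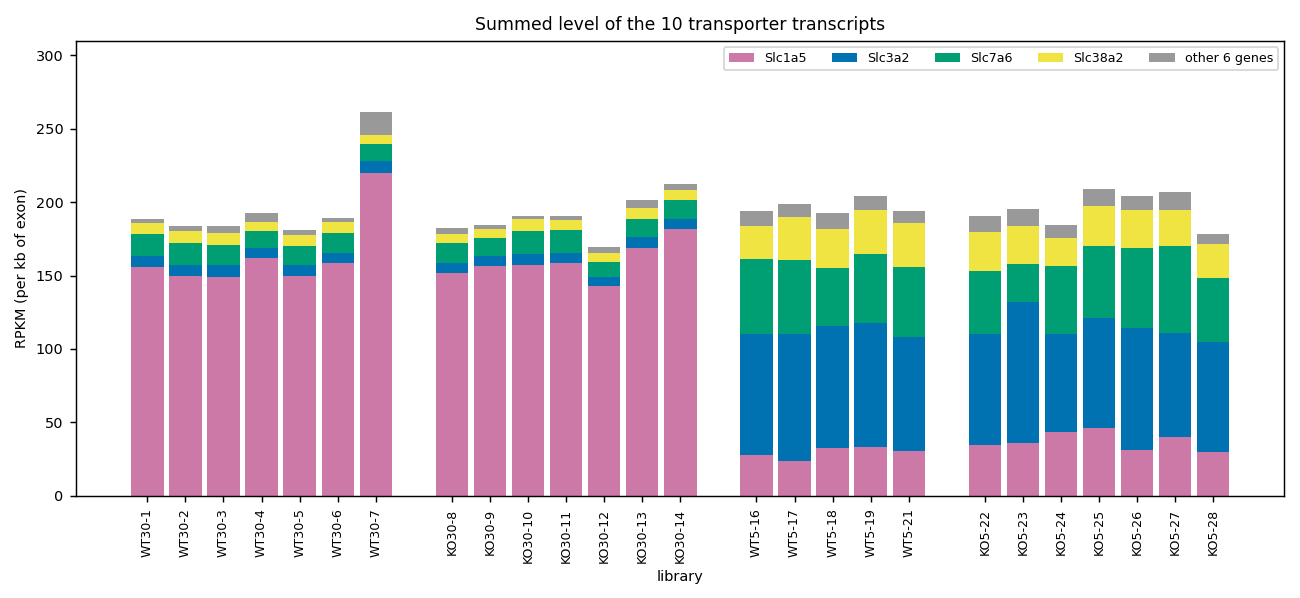
Stacked bars give the RPKM (linear axis from 0) of the transporter genes in each library, where WT30 and WT5 are control and KO30 and KO5 are libraries labelled Afadin KO at 30 and 5 °C. Slc1a5 fills most of each warm bar (83.0% on average in control) and Slc3a2 is the largest part of each cold bar (42.2% on average in control). The group means of the height are 190.3 to 197 RPKM. Control library 7 at 30 °C reaches 261 RPKM, and the other bars run from 169 to 213 RPKM.

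Between the genotypes, 0 of the 10 transporters passed the threshold at 30 °C and 0 at 5 °C, and 0 differed in their response to cold. By DESeq2's Wald test the counts were also 0, and at an unadjusted p below 0.05 there was 1 of the 10 in each comparison, where 7.65% of all genes passed that limit at 30 °C, 13.4% at 5 °C and 16.2% for the difference of the cold responses, so that 1 in 10 is close to or below the share over all genes. Few genes passed at all: at 30 °C 0.0579% of all genes were higher and 0.0231% lower in the libraries labelled Afadin KO, and at 5 °C 0.0463% were higher and 0.0926% lower. The groups overlapped for all 10 transporters at both temperatures, where 0.249% and 1.11% of all genes did not overlap. For the difference of the cold responses, 0.289% of all genes were higher and 0.868% lower. The comparisons with cold share their libraries with these. With each other they share no library, only the fit and its estimate of the spread.

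The gene with an unadjusted p below 0.05 at 30 °C was Slc7a10, lower in the libraries labelled Afadin KO by 0.95 on the log2 scale (log2 fold change −0.95, SE 0.44, adjusted p = 0.621). Without control library 7 the difference was −0.12 (adjusted p = 0.955), so the first is a value that rests on this 1 library. At 5 °C it was Slc1a5, which was higher by 0.34 in the libraries labelled Afadin KO (SE 0.11, interval 0.11 to 0.57, adjusted p = 0.179), and the fall of Slc1a5 with cold was 0.38 smaller there (SE 0.15, interval 0.07 to 0.68, adjusted p = 0.202). For Slc3a2 the intervals of the difference were −0.25 to 0.05 at 30 °C and −0.26 to 0.06 at 5 °C on the log2 scale, so any difference was small against its cold response. For Slc7a11 they were −1.06 to 1.14 and −0.94 to 0.89, so that differences of that size are within the intervals. The cold responses of Slc7a10 differed by 1.10 (SE 0.65, adjusted p = 0.418), and by 0.27 without control library 7.

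**Figure D4:**
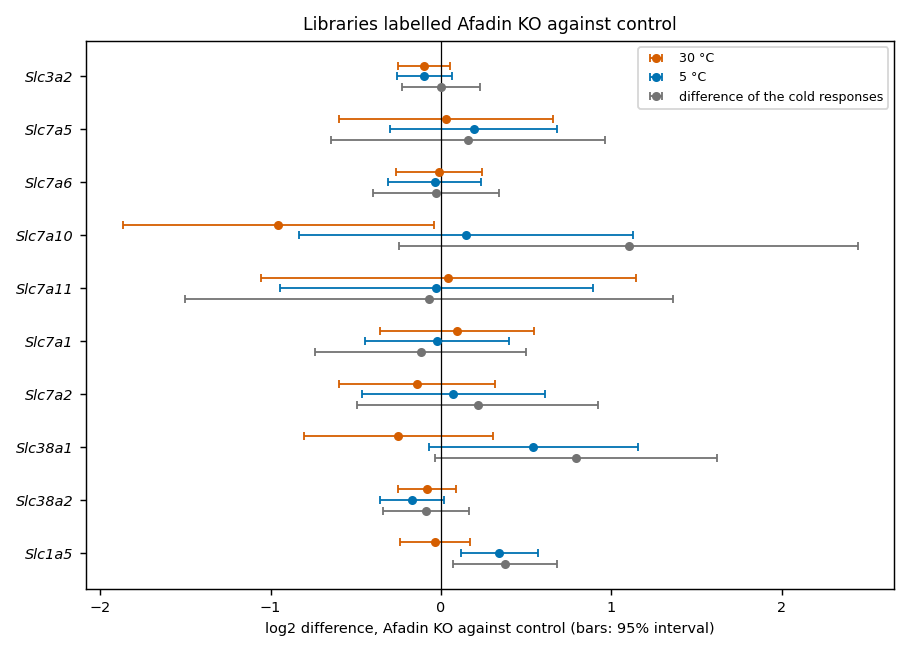
The log2 difference between the libraries labelled Afadin KO and control (horizontal axis) with its 95% interval, at 30 °C (orange), at 5 °C (blue) and for the difference of the cold responses (grey). Most intervals include 0, while Slc7a10 at 30 °C (−0.95) and Slc1a5 at 5 °C (0.34) and in the difference (0.38) lie off 0 before adjustment.

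By likeness, measured as the root mean square difference of log2 CPM centred on each gene's mean over the 26 libraries, Slc3a2 was nearest to Adcy3 (0.19), Sav1 (0.22) and Acot4 (0.24), and Slc1a5 to Angptl2 (0.18), Gpd1l (0.19) and Fam53b (0.20). Slc38a2 was nearest to Atp2a2 (0.16), Ell2 and Etf1 (both 0.17), and Slc7a6 was near to Col4a2 (0.18) and Cebpz (0.19). Slc7a1 and Slc7a5 had 2 of their 3 nearest genes in common, Plin2 (0.34 and 0.43) and Sash1 (0.35 and 0.40), with Vdr (0.38) for Slc7a1 and Ms4a6d (0.39) for Slc7a5. For Slc7a2 they were Pstpip2 (0.33), Tbc1d4 (0.33) and Amotl1 (0.35), for Slc38a1 Arhgap30 (0.34), Ctss (0.35) and Psd4 (0.36), and for Slc7a11, which was least like any gene, 1700047G03Rik (0.69), Tubb2a (0.72) and Cxcl1 (0.73). Among the 10 themselves the closest pair was Slc7a6 and Slc38a2 (0.25), followed by Slc7a1 and Slc7a5 (0.34).

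Slc7a10 was nearest to Retn (0.32), Ffar2 (0.42) and C4b (0.45), all expressed in white fat. Control library 7 at 30 °C was the highest of its group for all 4 genes. Retn, which encodes resistin, had 151 CPM there where the next library had 46.8 CPM, and C4b had 183 CPM where the next had 53.1 CPM. Library 13 labelled Afadin KO at 30 °C and control library 19 at 5 °C were also the highest of their groups for all 4. In the libraries labelled Afadin KO at 5 °C the highest library was not the same for all 4. Any part of white fat in these levels was not tested.

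Other genes of amino acid handling were counted in lists drawn up by function, also with earlier results known. Beside them, 31.6% of all genes rose and 33.4% fell with cold in control, and 33.7% and 34.9% in the libraries labelled Afadin KO. Of 30 other amino acid transporters 20 were tested, and with cold in control 8 rose and 7 fell, a median of 0.17 (9 and 7 in the libraries labelled Afadin KO). Slc7a8 (LAT2), a further light chain of Slc3a2, rose by 3.59 (SE 0.34, adjusted p = 7.18e-10), from 2.47 to 29.5 CPM. Slc43a2, a carrier of large neutral amino acids, rose by 2.89 (SE 0.14, adjusted p = 1.62e-15), and Slc6a13, a taurine and GABA carrier, fell by 1.84 (SE 0.36, adjusted p = 6.10e-05).

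Of 28 tested genes of lysosomal amino acid transport and mTORC1 sensing, 15 rose and 7 fell in control, with a median of 0.38 (16 and 7 in the libraries labelled Afadin KO). Sesn2, the leucine sensor, rose by 1.87 (SE 0.25, adjusted p = 2.26e-07), Castor1, the arginine sensor, fell by 1.85 (SE 0.23, adjusted p = 7.51e-08), and Fnip1, a partner of folliculin, rose by 1.58 (SE 0.09, adjusted p = 2.94e-14). The next list held Atf4 itself, genes of the response that this transcription factor drives when amino acids run short, and the Eif2ak kinases upstream of it. In this list of Atf4 and the amino acid response 17 of 28 were higher and 6 lower, a median of 1.08. The libraries labelled Afadin KO had 17 and 7. The hormone gene Fgf21 rose by 5.18 (SE 0.49, adjusted p = 7.03e-10), from 0.337 to 13.8 CPM, Mthfd2, of mitochondrial folate metabolism, by 3.95 (SE 0.27, adjusted p = 1.42e-12), and Atf5 by 2.22 (SE 0.20, adjusted p = 1.99e-10).

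Of 13 tested genes of cystine and glutathione metabolism 5 rose and 3 fell, a median of 0.31 (6 and 1 in the libraries labelled Afadin KO). Cth, which makes cysteine from cystathionine, rose by 3.29 (SE 0.31, adjusted p = 5.98e-10), Txnrd1, thioredoxin reductase, by 1.15 (SE 0.09, adjusted p = 9.35e-12) and Gclm, a subunit of the enzyme that starts glutathione synthesis, by 0.91 (SE 0.08, adjusted p = 1.89e-10). Of 20 tested enzymes of glutamine, glutamate, arginine, leucine and serine, 8 rose and 2 fell, a median of 0.37 (12 and 3 in the libraries labelled Afadin KO). Got1, aspartate transaminase, rose by 3.50 (SE 0.13, adjusted p = 1.19e-17), Odc1, which makes putrescine from ornithine, rose by 2.21 (SE 0.08, adjusted p = 5.23e-18), and Nos2, nitric oxide synthase, fell by 2.18 (SE 0.16, adjusted p = 7.02e-12). In each list 0 genes passed the threshold between the genotypes or in the difference of the cold responses.

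**Figure D5:**
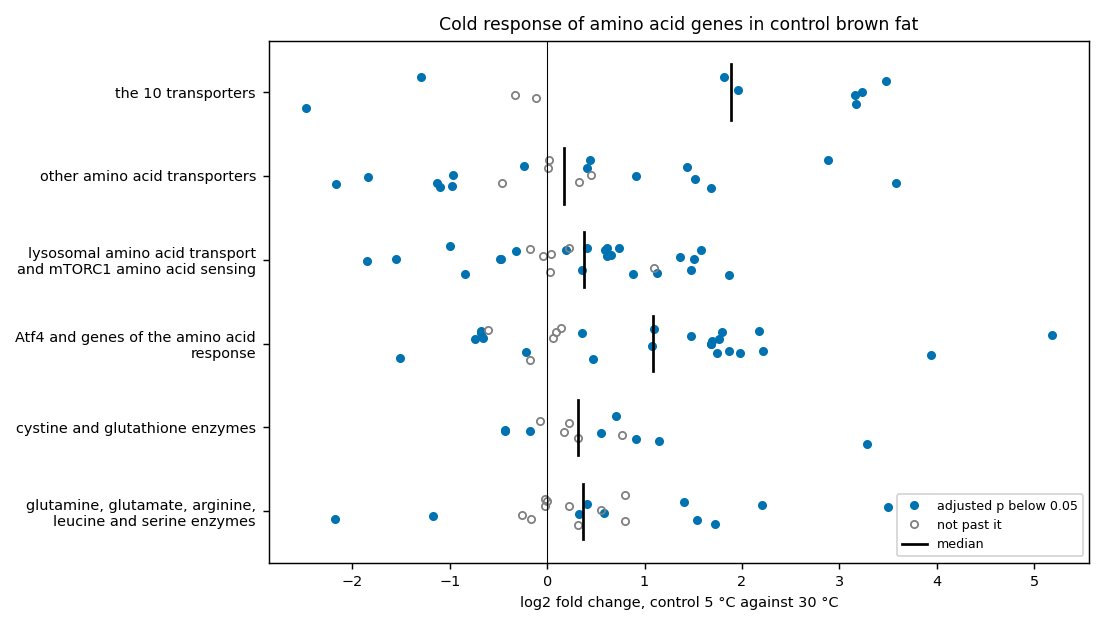
Each point is the log2 fold change of 1 gene with cold in control (horizontal axis), filled where the adjusted p was below 0.05, with the median of each list as a black line. The 10 transporters have a median of 1.88 and the wider lists medians of 0.17 to 1.08, and each list holds genes on both sides of 0.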

How the data were processed

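RNA had been extracted with Trizol and sequenced as stranded total RNA after ribosomal depletion. The authors deposited raw counts per gene and library, made per the labels and the study's methods by alignment to mm10 with STAR 2.5.2b and counting with featureCounts 1.5.2 on a GENCODE annotation. The strand setting of the counting is not given in the sources used here. Groups came from the labels, which give 30 °C where the study's methods state a slightly lower setting.

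Genes were filtered with filterByExpr by group and fitted in R 4.3.3 with edgeR 4.0.16 (legacy quasi-likelihood, TMM factors, 1 term per group, all 26 libraries). P-values were adjusted by Benjamini-Hochberg over all 17286 genes with a threshold of 0.05. CPM used the TMM-scaled library sizes, and RPKM divided CPM by the union of exon lengths. The lowest chi-square between 2 libraries of a group was 5.17 per gene, so no pair within a group differed by counting error alone. Pairs across groups were not compared, and the value does not tell whether 2 libraries came from the same mouse. The fit was also run on simulated counts, drawn independently with the spread estimated from these data. Far fewer genes were changed there than passed the threshold with cold here, and no result rests on it. Library totals of 12705969 counts or more leave genes under 1 CPM with few reads, and intervals of counts cover counting error and the spread between mice together.

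The members and the lists were chosen with earlier results of these data known. All 10 members were named, with Afdn and Ucp1 as checks, the 3 genes of each list with the largest change past the threshold with cold in control (mean of at least 1 CPM), and the 3 genes nearest to each member in centred log2 CPM (prior count 2). For Slc7a6, 1 of the 3 is not reported here. Retn, C4b and the markers of other cell types were described further after their values were seen. Promoter sequences were from RefSeq (GRCm38.p6). Slc7a2, Slc7a5, Slc38a1 and Slc1a5 had no entry in that table. Alternatives were DESeq2 1.42.0, library size alone, upper-quartile factors, the revised and the robust quasi-likelihood, no filter, at least 10 counts in every library, only the groups compared, and each library left out. A covariate for skeletal muscle markers was chosen after seeing the data.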

Additional observations from a re-analysis of the deposited data

Results flagged for a closer look

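Of 40 pairs of a group and a transporter gene, 5 held a library far from the others by Dixon's criterion, where chance gives about 1 in 20. In control at 30 °C these were Slc7a10 and Slc1a5 in library 7, at 29.1 and 918 CPM, Slc38a1 in library 3, at 3.43 CPM, and Slc7a5 in library 1, at 0.193 CPM. The last of the 5 was Slc7a5 in library 8 labelled Afadin KO at 30 °C, at 0.907 CPM. The Slc7a5 values rest on 3 to 17 reads a library.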

How the results depend on the processing

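No paired analysis was possible because the libraries are numbered through the series and no groups share a number. Over 9 alternative settings and 26 fits that each left out 1 library, the counts of transporters past the threshold were 4 to 6 higher and 2 lower with cold in control, and 4 to 7 higher and 2 lower in the libraries labelled Afadin KO. The 4 came from the filter of at least 10 counts in every library, which left Slc7a5 and Slc7a11 untested. Between the genotypes and in the difference of the cold responses the counts were 0 in every fit. The call that changed was Slc7a10 with cold in the libraries labelled Afadin KO, which passed the threshold with DESeq2 (1.01, adjusted p = 0.0447), with only the groups compared (0.95, adjusted p = 0.0109), with the muscle covariate added after seeing the data (1.06, adjusted p = 0.0179), and by edgeR without libraries 13, 24 or 27 (1.22, 1.05 and 1.11, adjusted p = 0.0227, 0.0498 and 0.0329). No called transporter changed direction.

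Counts over all genes moved more. At 30 °C 14 genes passed between the genotypes, 9 to 48 over the settings (48 with DESeq2) and 7 to 93 with a library left out (93 without control library 7). At 5 °C there were 24, with 5 to 197 and 7 to 100, and for the difference of the cold responses 200, with 27 to 488 and 49 to 371. In the main fit the median log2 fold change of all genes was −0.01 with cold in control and −0.03 in the libraries labelled Afadin KO. Between the genotypes at 30 °C it was −0.02. With library size alone these medians were −0.14, −0.34 and 0.13. The share of cold calls that were higher then went from 48.5% to 40.0% in control and from 49.1% to 27.8% in the libraries labelled Afadin KO. Slc7a5, Slc7a11 and Slc38a1 had 3 to 62 reads a library at 30 °C, and counting error and the spread between mice were not separated there.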
